A study of Mus musculus with 8 samples.

Results

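The collagen chains were described as one set in hearts of C57BL/6 mouse embryos at embryonic day 9.5, as 4 Female and 4 Male libraries. Members were all genes whose symbol is Col, a type number, the letter a and a chain number: 44 of the 49315 genes in the count table, spread over 27 collagen types. That rule reads symbols and no measured value, though earlier results of these data were known when the chains were chosen. The labels name no transgene, deletion or treatment in either group. Sex was assigned to each embryo by genotyping Sry, a gene of chromosome Y, on tissue other than the heart, and heart RNA was taken up in Trizol before library preparation with an Illumina TruSeq kit. Whether 1 heart or several went into a library is not in the labels, so a p-value here reflects only how these 8 libraries spread, which may be technical. Totals ran from 20105913 to 51134291 counts per library, and the chains together held 0.163% to 0.286% of the counts.

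Collagens are extracellular matrix proteins built from chains wound into a triple helix. Fibrillar types such as I, II, III, V and XI assemble into fibrils, type IV forms the network of basement membranes, type VI forms beaded filaments, types IX, XII and XXII attach to other matrix structures, and types XIII and XXIII span the cell membrane. In the early heart tube the myocardium and the endocardium lie on either side of a matrix called the cardiac jelly, and basement membranes line both layers. Chains are hydroxylated, glycosylated and folded in the endoplasmic reticulum before export, so the enzymes and chaperones of that route are given with the chains.

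Of the 44 chains, 36 passed the filter on low counts and 18 had a mean of at least 10 CPM (counts per 1000000 counts of the library, scaled with TMM factors). The 8 chains that did not pass had between 0 and 68 counts over all libraries. Levels are compared between genes only as CPM per kilobase of exon, where the length is the union of all annotated exons given in the deposited files; a chain with a long annotated isoform therefore has a lower value on this scale. In bulk tissue, fewer cells of a type and less RNA per cell cannot be told apart.

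2 libraries stood apart. Male replicate 2 and Female replicate 1 had the lowest summed collagen level, 1886 and 1908 CPM, against 2235 to 2733 CPM in the other 6. Their summed foregut and pharyngeal epithelium markers (15 of 15 listed genes tested) reached 569 and 475 CPM against 235 to 430 CPM elsewhere. Krt8 and Krt18 made up most of this sum. They measured 310.6 and 196.2 CPM in Male replicate 2, and 233.2 and 150.2 CPM in Female replicate 1. Krt8 was higher in Female replicate 3, at 250.7 CPM, than in Female replicate 1. The log2 deviation of each gene from its mean, averaged over the list, weighs the genes equally. It was 0.840 in Male replicate 2 and 1.27 in Female replicate 1, against -0.631 to 0.370 elsewhere. The liver and visceral yolk sac markers (7 of 10 tested) reached 43.4 and 90.4 CPM in these 2 libraries, against 4.55 to 23.2 CPM. Of the yolk sac markers, Alb, which did not pass the filter, had no count in Female replicates 2, 3 and 4 or Male replicate 1. Alb was 0.815 CPM in Male replicate 2 and 0.400 CPM in Female replicate 1, but also 0.533 CPM in Male replicate 4 and 0.177 CPM in Male replicate 3. The 10 endocardium and endothelium markers summed to 850.5 and 817.1 CPM in Male replicate 2 and Female replicate 1, against 887 to 1015 CPM elsewhere. The 10 cushion mesenchyme markers summed to 1418 and 1419 CPM in these 2 libraries, against 1522 to 1690 CPM. Vim held 1036 and 987 CPM of these 2 sums. The mean log2 deviation over this list was -0.216 in Male replicate 2 and -0.192 in Female replicate 1, against -0.0244 to 0.143 elsewhere. The members split in Male replicate 2: Twist1, Snai1, Msx2 and Tbx20 were at their lowest, and Sox9 (71.8 CPM), Msx1 (42.9 CPM) and Prrx1 (13.0 CPM) at their highest. The epicardium and proepicardium sums, 226 and 193 CPM, lay within the range of the others, 184 to 240.5 CPM. Krt19 held 133.9 and 111.8 CPM of these 2 sums. The mean log2 deviation over this list (9 of 10 tested) was -0.293 in Male replicate 2 and -0.158 in Female replicate 1, against -0.2085 to 0.4775 elsewhere. In Male replicate 2, Wt1 (11.24 CPM) and Tcf21 (4.08 CPM) were at their lowest and Tbx18 (41.75 CPM) at its highest. The 11 cardiomyocyte markers summed to 67550 CPM in Male replicate 2 and to between 40010 and 52860 CPM in the others. The labelled tissue was read from the same list, in which 11 of 11 genes passed the filter and Tnnt2, cardiac troponin T, had a mean of 5665 CPM. What part these marker differences had in the collagen values was not tested.

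Type II ranked first by level per length and type IV second, and the order of the 4 leading chains was the same in all 8 libraries. Col2a1 held 33.1% ± 2.61 (SD, n = 8) of the summed CPM per kilobase of the 44 chains, and the 6 type IV chains together 27.3% ± 1.90. Type XVIII followed with 19.1% ± 1.27, then type V with 5.88% ± 0.495, type I with 3.11% ± 0.965 and type III with 2.70% ± 0.640. Type VI held 1.66% ± 0.151 and type IX 1.499% ± 0.230. The 4 leading chains, Col2a1, Col18a1, Col4a1 and Col4a2, held 76.6% of the signal and the leading 10 held 90.5%. By class, fibrillar chains held 45.4% ± 2.72, of which Col2a1 was the larger part, and the multiplexins 19.1% ± 1.29.

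**Figure D1:**
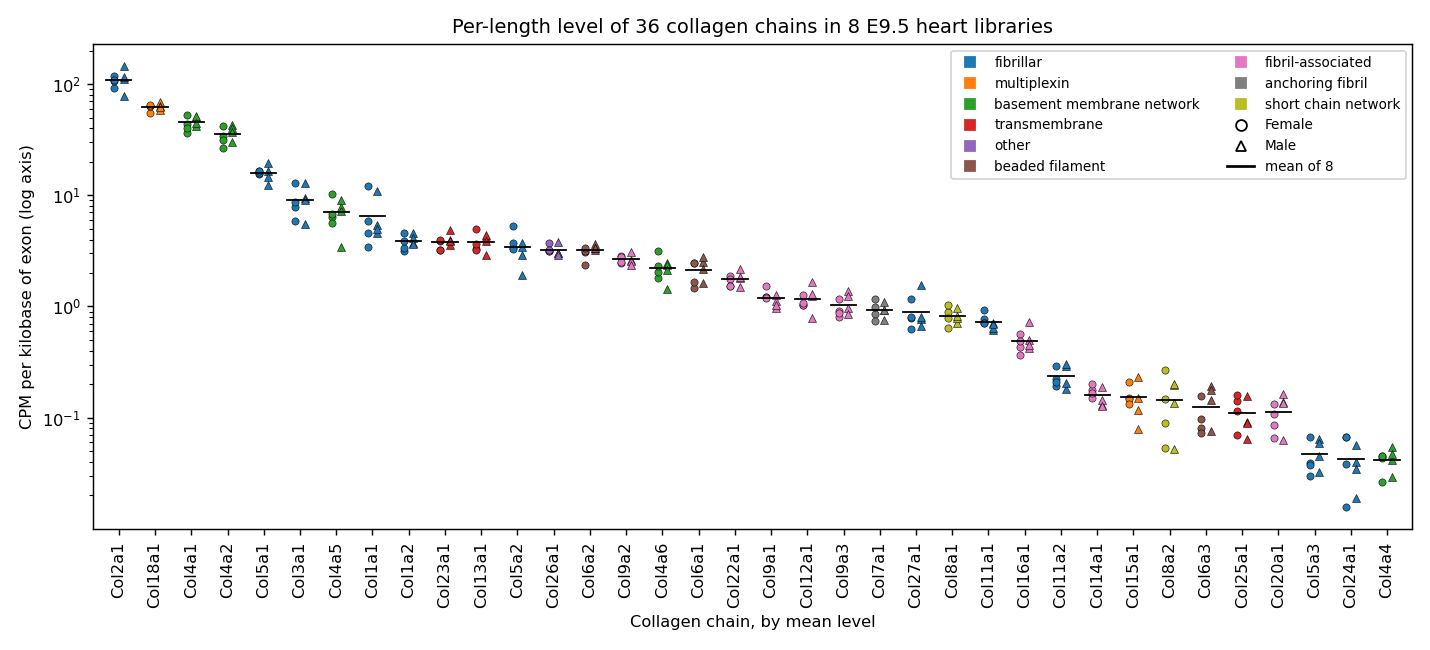
Level of each of the 36 chains that passed the filter, in CPM per kilobase of exon on a log axis, with 4 Female libraries as circles, 4 Male libraries as triangles, the mean of 8 as a line and the class as colour. Col2a1, Col18a1, Col4a1 and Col4a2 sit above the others, from 109.7 to 35.5 CPM per kilobase on average, and the male and female points of every chain overlap.

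The neighbours in this order separate at the top and then run together. Col2a1 exceeded Col18a1 and Col18a1 exceeded Col4a1 in 8 of 8 libraries with no overlap of their ranges of CPM per kilobase. Col4a1 lay above Col4a2 in 8 of 8 libraries by 9.88 ± 1.63 CPM per kilobase (SD), although their ranges overlap, and Col4a2 lay above Col5a1 with no overlap. Below them, Col4a5 was higher than Col1a1 in 5 of 8 libraries only, and Col1a2, Col23a1 and Col13a1, at 3.87, 3.83 and 3.82 CPM per kilobase, did not differ beyond their spread (differences of 0.0481 ± 0.744 and 0.00408 ± 0.925 CPM per kilobase). Ranked by CPM with no division by length, Col2a1 held 28.7% in place of 33.1% and Col18a1 remained second. Type II exceeded the summed type IV chains in 8 of 8 libraries in CPM per kilobase, but on the CPM scale type IV held 27.9% and exceeded type II in 3 of 8 libraries, Female replicate 4 and Male replicates 2 and 3.

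The fibrillar chains are described first. Col2a1 (chromosome 15, 97975602 to 98004695 on GRCm38), the single chain of type II collagen, best known from cartilage and notochord, measured 549, 717, 637 and 660.0 CPM in Female replicates 1 to 4 and 873, 469.9, 672 and 691 CPM in Male replicates 1 to 4. The lowest and the highest library were both male, so the female values lay inside the male range. Of the markers of cartilage and notochord, Acan, the cartilage proteoglycan gene, had a mean of 1.01 CPM, Matn1 0.0776 CPM and Cnmd 0.0804 CPM, while Noto, a notochord gene, had 0 counts. Sox5 had a mean of 4.45 CPM, Shh 1.29 CPM, Matn4 0.859 CPM, Comp 0.189 CPM and T 0.0954 CPM. Shh reached 5.02 CPM in Female replicate 1, and Sox5 reached 7.69 CPM in Male replicate 2. Of the 10 genes in that list 5 passed the filter, and Hapln1, a link protein of hyaluronan matrix that the heart tube also expresses, ranged from 251 to 329 CPM within the list's sum of 261 to 336 CPM. Leaving out Male replicate 1 changed the sign of the small male minus female difference of Col2a1 (given below).

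Col1a1 (chromosome 11, 94936224 to 94953042), the major chain of type I collagen, varied most of the 18 chains of at least 10 CPM. It measured 22.3, 29.8, 79.8 and 38.9 CPM in the Female libraries and 71.0, 30.0, 35.2 and 32.5 CPM in the Male libraries, in replicate order. A single library of each sex, Female replicate 3 and Male replicate 1, stood far above the other 6, and the sexes overlap. Its partner Col1a2 (chromosome 6, 4504814 to 4541544) measured 39.4, 41.6, 56.7 and 48.5 CPM in the Female libraries and 56.5, 46.4, 51.0 and 45.0 CPM in the Male libraries. The same libraries were highest for Col1a2, but its coefficient of variation was 13.2% against 49.6% for Col1a1. The biological coefficient of variation of Col1a1 in the fit was 40.2%, 2.64 times the trend for its level, and that of Col1a2 was 14.1%, 0.925 times the trend.

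Col3a1 (chromosome 1, 45311538 to 45349706), whose protein co-assembles with type I in soft tissues, measured 57.1, 76.3, 84.8 and 128 CPM in the Female libraries and 92.9, 54.1, 127 and 88.2 CPM in the Male libraries. Female replicate 1 and Male replicate 2 were lowest, and 1 library of each sex reached the top of the range. Its coefficient of variation was 31.3%. Col5a1, a chain of the type V collagen that starts fibrils, measured 131, 139.9, 133 and 139 CPM in the Female libraries and 166, 105, 139 and 125 CPM in the Male libraries. The highest and the lowest library were both male, and the Female libraries lay between them. Col5a2, its partner chain, measured 32.1, 35.4, 31.8 and 51.2 CPM in the Female libraries and 32.8, 18.4, 35.9 and 27.8 CPM in the Male libraries. Female replicate 4 was high, Male replicate 2 low, and the other 6 lay between 27.8 and 35.9 CPM.

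Col27a1, a fibrillar chain with a shorter helix, measured 15.1, 10.2, 10.4 and 8.22 CPM in the Female libraries and 10.1, 20.1, 8.70 and 10.5 CPM in the Male libraries. It was highest in the 2 libraries that were lowest for most other chains, and its coefficient of variation was 34.3%. The remaining 4 fibrillar chains were Col11a1 at a mean of 9.21 CPM, Col11a2 at 1.62 CPM, Col24a1 at 0.323 CPM and Col5a3 at 0.318 CPM. Col11a1, which joins type II in cartilage fibrils, was far below Col2a1 per length: Col2a1 was 118 to 205 times Col11a1 in CPM per kilobase, depending on the library.

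The basement membrane chains of type IV lie in pairs that share a start region. Col4a1 starts at position 11312826 of chromosome 8 on the minus strand and Col4a2 at 11312805 on the plus strand, so their first exons overlap by 22 bases; Col4a6 and Col4a5 on chromosome X start 1308 bases apart, and Col4a4 and Col4a3 on chromosome 1 start 71 bases apart. RefSeq promoter windows (GRCm38.p6, 250 bases before to 50 after a start) matched 35 of the 44 chains, in 38 windows. Because the 2 linked pairs differ in how near their starts lie and are the pairs whose covariation is given below, the shared start of Col4a1 and Col4a2 (chr8:11312801-11312830, plus strand, capitals mark the overlap) and the sequence before the starts of Col4a5 (chrX:141475169-141475384, plus strand) and Col4a6 (chrX:141474077-141474326, minus strand) are shown. Those before Col3a1 (chr1:45311288-45311537, plus strand) and Col27a1 (chr4:63215162-63215411, plus strand) are shown because, of the 18 chains of at least 10 CPM, these 2 had the lowest correlation with each other over the libraries. The Col27a1 window lies before the RefSeq start, which is 1408 bases inside the gene as the deposited files place it (start 63214004), and the RefSeq start of Col4a5 is 34 bases inside its gene, so that window was trimmed to the bases before the gene. In the last 4 sequences capitals mark 3 motifs on either strand: CCAAT, the core of a GC box spelled GGGCGG, and the core of a TATA box spelled TATAAA.
Col4a1 and Col4a2: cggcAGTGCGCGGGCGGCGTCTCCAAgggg
Col4a5: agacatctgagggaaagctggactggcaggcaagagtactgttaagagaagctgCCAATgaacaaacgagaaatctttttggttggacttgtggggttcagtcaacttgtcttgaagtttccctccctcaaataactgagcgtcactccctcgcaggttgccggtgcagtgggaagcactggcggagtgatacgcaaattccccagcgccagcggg
Col4a6: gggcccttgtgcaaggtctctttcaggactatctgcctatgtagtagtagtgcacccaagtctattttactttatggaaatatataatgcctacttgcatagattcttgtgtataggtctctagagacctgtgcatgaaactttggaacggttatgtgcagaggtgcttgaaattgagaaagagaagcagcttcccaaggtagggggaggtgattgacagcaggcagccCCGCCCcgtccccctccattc
Col3a1: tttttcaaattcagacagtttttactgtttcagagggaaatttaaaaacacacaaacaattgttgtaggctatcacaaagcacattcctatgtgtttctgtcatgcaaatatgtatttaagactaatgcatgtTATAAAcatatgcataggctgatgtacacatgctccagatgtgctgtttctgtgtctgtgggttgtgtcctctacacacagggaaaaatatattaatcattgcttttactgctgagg
Col27a1: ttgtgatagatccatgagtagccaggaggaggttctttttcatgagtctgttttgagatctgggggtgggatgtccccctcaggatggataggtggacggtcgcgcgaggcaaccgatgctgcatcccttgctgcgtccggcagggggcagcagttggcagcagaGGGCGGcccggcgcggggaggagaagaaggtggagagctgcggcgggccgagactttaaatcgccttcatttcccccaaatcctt

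GGGCGG was present on either strand in 60.5% of the 38 collagen windows and in 35.7% of all 32851 windows of the same length. CCAAT was present in 34.2% and 37.4%, and TATAAA was present in 13.2% and 13.6%. ATTGG, the reverse complement of CCAAT, can share bases with GGGCGG. These matches describe letters only.

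Col4a1, a chain of the network that every basement membrane holds, measured 271, 326, 301 and 395 CPM in the Female libraries and 379, 314, 388 and 335 CPM in the Male libraries. Col4a2, the chain with which it forms a trimer, measured 175, 224, 209.9 and 275 CPM in the Female libraries and 285, 199, 266 and 243 CPM in the Male libraries. Both were lowest in Female replicate 1, both were high in Female replicate 4 and in Male replicates 1 and 3, and the sexes overlap. Counts of reads from the 22 shared bases cannot be told apart between the genes without strand, but these bases are 0.295% of the exon length of Col4a1 and 0.332% of that of Col4a2.

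Col4a5, an X-linked chain of the mature type IV networks, measured 43.2, 45.7, 37.8 and 69.3 CPM in the Female libraries and 52.9, 22.9, 60.4 and 48.7 CPM in the Male libraries. Col4a6, its X-linked neighbour and partner, measured 14.3, 16.4, 18.5 and 25.3 CPM in the Female libraries and 19.8, 11.5, 18.7 and 16.9 CPM in the Male libraries. Male replicate 2 was lowest and Female replicate 4 highest for both. Col4a4 had a mean of 0.440 CPM and Col4a3, which did not pass the filter, 68 counts in all; 5.65% of the exon length of Col4a3 overlaps an antisense gene.

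Col18a1, a multiplexin of vessel and epithelial basement membranes whose fragment is known as endostatin, varied least of the 18 chains. It measured 384, 445, 447 and 457 CPM in the Female libraries and 487, 407, 444 and 438 CPM in the Male libraries, with a coefficient of variation of 7.07%. Female replicate 1 was the low library and Male replicate 1 the high one. The other multiplexin, Col15a1, had a mean of 0.966 CPM, and its level in CPM per kilobase was 0.00126 to 0.00403 times that of Col18a1.

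Type VI chains form the beaded filaments around cells. Col6a2 measured 19.7, 25.9, 26.0 and 28.1 CPM in the Female libraries and 30.5, 26.9, 28.2 and 28.2 CPM in the Male libraries; Female replicate 1 was the low library, and the sexes overlap. Col6a1 had a mean of 9.38 CPM, from 6.46 to 12.1 CPM, and Col6a3, the third chain of the common trimer, a mean of 1.49 CPM. Per length, Col6a1 was 0.497 to 0.819 times Col6a2 and 12.2 to 25.5 times Col6a3. Col6a4, Col6a5 and Col6a6 had 9, 12 and 5 counts over all libraries.

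Of the membrane-spanning chains, Col23a1 measured 18.6, 22.1, 18.5 and 22.6 CPM in the Female libraries and 22.9, 27.7, 20.7 and 22.4 CPM in the Male libraries. Col13a1 measured 15.2, 14.9, 16.9 and 22.9 CPM in the Female libraries and 19.6, 13.4, 20.1 and 17.8 CPM in the Male libraries. Male replicate 2 was the highest library for Col23a1 and the lowest for Col13a1. Col25a1 had a mean of 1.43 CPM, and Col17a1, a chain of epithelial hemidesmosomes, 48 counts in all.

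Of the fibril-associated chains, 2 had a mean of at least 10 CPM. Col12a1, found along type I fibrils, measured 15.6, 15.6, 16.5 and 19.2 CPM in the Female libraries and 25.2, 11.9, 19.0 and 19.9 CPM in the Male libraries. Col22a1, a chain of tissue junctions such as that of muscle with tendon, measured 17.4, 16.3, 14.0 and 14.0 CPM in the Female libraries and 19.9, 16.4, 13.7 and 17.1 CPM in the Male libraries. Both had their highest value in Male replicate 1, and the sexes overlap for both. Per length the leading chain of this class was Col9a2 at 2.66 ± 0.247 CPM per kilobase (SD, n = 8), then Col22a1 at 1.75 ± 0.233, while Col9a1 and Col9a3, the other chains of type IX, were at 1.19 ± 0.167 and 1.02 ± 0.216. The Col9a3 value includes reads that an antisense gene, Tcfl5, may share over 6.07% of its exon length.

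Col26a1, a short chain that is grouped apart, measured 25.7, 26.0, 30.1 and 26.5 CPM in the Female libraries and 24.7, 30.8, 24.8 and 23.6 CPM in the Male libraries. Its coefficient of variation of 9.79% was the second lowest of the 18, and that of Col6a2, 11.9%, the third lowest. Among the rest, Col7a1, the anchoring fibril chain, had a mean of 9.60 CPM; Col8a1 and Col8a2, the short network chains, had means of 4.22 and 0.642 CPM. Col10a1, the chain of hypertrophic cartilage, had 8 counts and Col19a1 had 12. Col28a1 had 0 of 277856671 counts, which allows a level of up to 0.0108 CPM over all libraries at 3 counts.

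Over the 8 libraries most chains of at least 10 CPM moved together, and Col27a1 moved most strongly against them. The median Pearson r of log2(CPM + 0.5) over the 153 pairs of the 18 chains was 0.48, with 69.3% of the pairs positive, against a median of 0.02 over all pairs of the 9242 genes of at least 10 CPM. It was 0.48 without Male replicate 2 and 0.31 without Male replicate 2 and Female replicate 1. Over the 630 pairs of all 36 tested chains, which include those below 10 CPM, it was 0.13. Counting noise is larger for low genes, and what part it had in this value was not tested. The pairs share their libraries, so these values describe the set and carry no test.

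**Figure D2:**
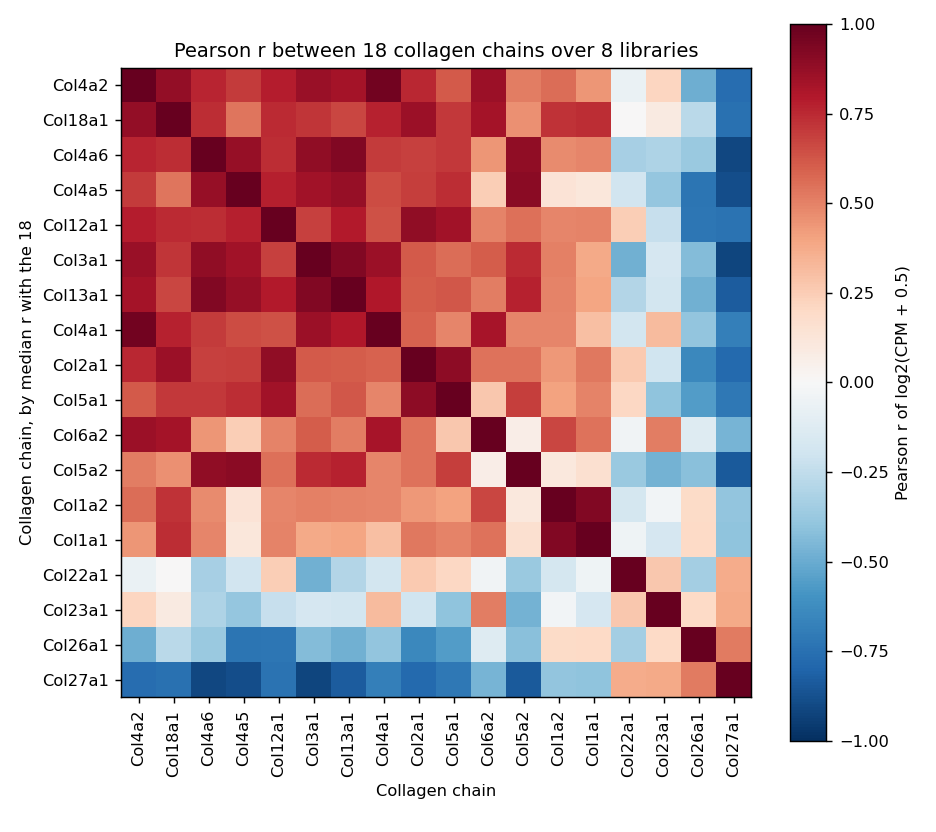
Pearson r of log2(CPM + 0.5) over 8 libraries between the 18 chains of at least 10 CPM, ordered by their median r with the set. Most squares are red (69.3% of pairs above 0), and the last chain, Col27a1, is blue against most others, down to -0.92 with Col3a1.

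The class medians were taken over all tested chains, including those below 10 CPM, for which the median r was 0.13. Pairs within the basement membrane class had a median r of 0.67 (10 pairs). Those within the fibrillar class had 0.37 (55 pairs) and those within the fibril-associated class -0.10 (28 pairs). Without Male replicate 2 the fibrillar median was 0.19 and that of the basement membrane chains 0.74. Pairs of the same class had a median of 0.25 (101 pairs) and pairs of different classes 0.12 (529 pairs). Without Male replicate 2 these medians were 0.163 and 0.164, so the same-class excess was not present without that library. Across classes, Col3a1 and Col13a1 had an r of 0.93, Col13a1 and Col4a6 0.93, and Col4a5 and Col5a2 0.90. Col27a1 had its lowest r with Col3a1 (-0.92) and Col4a6 (-0.91), and a median of -0.74 with the other chains of at least 10 CPM. Col26a1, Col23a1 and Col22a1 also had medians below 0, at -0.39, -0.17 and -0.06.

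The first principal component of the 18 chains held 62.8% of their variance. Its scores were -1.93 in Male replicate 2, -1.07 in Female replicate 1 and at least -0.20 elsewhere, up to 1.22 in Female replicate 4. The second component held 21.7% and was highest in Female replicate 3 (1.00) and Male replicate 1 (0.73), the 2 libraries with high Col1a1. Male replicate 2 was the lowest library for 8 of the 18 chains and the highest for 3, Female replicate 1 was the lowest for 6, and Male replicate 1 and Female replicate 4 were the highest for 7 and 6.

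**Figure D3:**
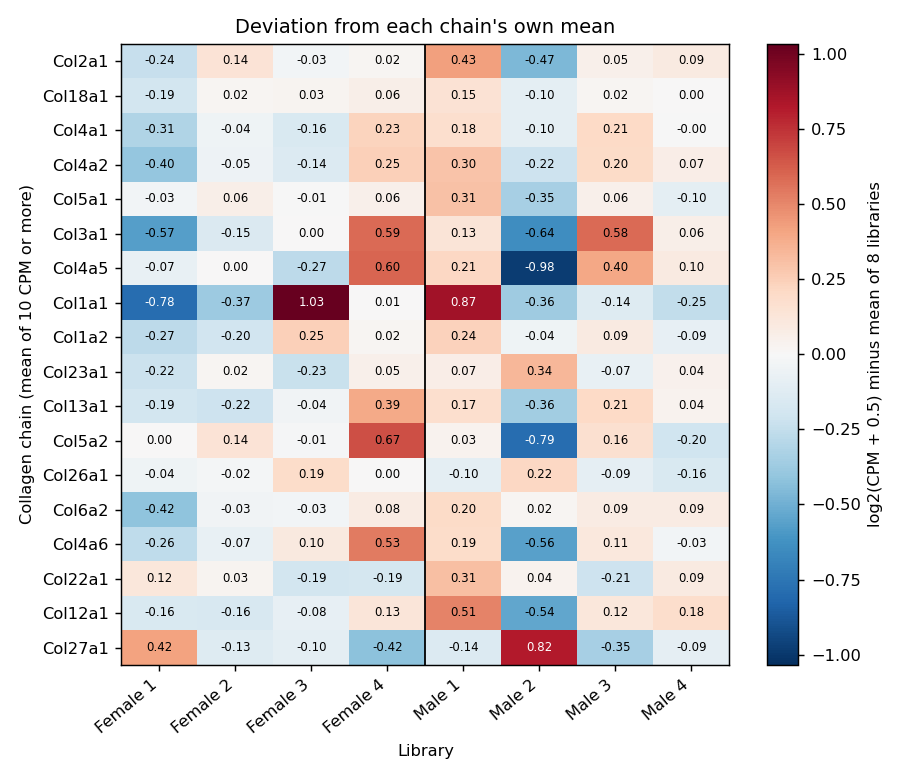
Log2(CPM + 0.5) of each of the 18 chains of at least 10 CPM minus its mean over 8 libraries, with libraries in columns and a line between the sexes. Blue columns are Male replicate 2, lowest for 8 chains, and Female replicate 1, lowest for 6; Col27a1 is red in both, and Col1a1 is red in Female replicate 3 and Male replicate 1.

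For 12 pairs of chains that share a trimer, a fibril, a class or a start region, r was tested by an exact permutation test over all pairings of the libraries (2-sided, with Benjamini-Hochberg adjustment over the 12). The 12 pairs were chosen with earlier results of these data known, and the adjustment does not account for that choice. In 4 pairs the adjusted p was below 0.05. For Col1a1 with Col1a2 and for Col4a1 with Col4a2 this held with each library left out in turn. Col1a1 and Col1a2 had an r of 0.93 (exact permutation p = 0.000422, adjusted p = 0.00268) and a Spearman rho of 0.95 (exact permutation p = 0.00114), with an r of 0.86 without Female replicate 3 and Male replicate 1, the 2 libraries farthest from the median of Col1a1. Col4a1 and Col4a2 had an r of 0.97 (exact permutation p = 0.000446, adjusted p = 0.00268) and a rho of 0.90 (exact permutation p = 0.00456), with an r of 0.93 without Female replicates 1 and 4. Of all 16377 tested genes, Col1a2 ranked 4 by r with Col1a1, and Col4a2 ranked 10 by r with Col4a1. The sexes were pooled here; with values centred within each sex the r was 0.96 for both pairs.

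The other 2 pairs that passed did not hold with each library left out, where their adjusted p reached 0.174 without Male replicate 2 for Col4a5 with Col4a6 and 0.383 without Female replicate 1 for Col6a1 with Col6a2. Col4a5 and Col4a6 had an r of 0.87 (exact permutation p = 0.00826, adjusted p = 0.0330; rho 0.83, exact permutation p = 0.0154), but an r of 0.38 without Male replicate 2 and Female replicate 4, so the relation rests on those libraries. Col6a1 and Col6a2 had an r of 0.70 (exact permutation p = 0.0146, adjusted p = 0.0437; rho 0.67, exact permutation p = 0.0831), an r of 0.53 without Female replicate 1 and Male replicate 2, and an adjusted p of 0.0694 when values were centred within each sex. Their partner chain ranked 2386 and 1807 among all tested genes by r with Col4a5 and with Col6a1.

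The remaining 8 pairs did not pass. Col5a1 and Col5a2 had an r of 0.69 (exact permutation p = 0.0503, adjusted p = 0.101) and a rho of 0.76 (exact permutation p = 0.0368), and 0.74 without Male replicates 1 and 2. Single libraries moved this pair both ways: its r was 0.22 (adjusted p = 0.648, exact permutation test) without Male replicate 2 and 0.90 (adjusted p = 0.00873, exact permutation test) without Male replicate 1. Col6a1 and Col6a3 had an r of 0.77 (exact permutation p = 0.0454, adjusted p = 0.101) and a rho of 0.67 (exact permutation p = 0.0831), and Col1a1 and Col3a1 an r of 0.38 (exact permutation p = 0.364, adjusted p = 0.546) and a rho of 0.62 (exact permutation p = 0.115). Without Female replicate 3 and Male replicate 1 the r of Col1a1 and Col3a1 was 0.83. The values for types IX and VIII were lower or negative. Col9a1 and Col9a2 had an r of -0.04 (exact permutation p = 0.921, adjusted p = 0.921) and a rho of -0.19 (exact permutation p = 0.665). Col9a2 and Col9a3 had an r of -0.68 (exact permutation p = 0.0613, adjusted p = 0.105) and a rho of -0.74 (exact permutation p = 0.0458), with an r of -0.59 without Male replicates 2 and 4. Col8a1 and Col8a2 had an r of 0.30 (exact permutation p = 0.461, adjusted p = 0.614) and a rho of 0.26 (exact permutation p = 0.536), and the r was -0.71 without Female replicates 1 and 4. Col2a1 and Col11a1 had an r of 0.20 (exact permutation p = 0.619, adjusted p = 0.675) and a rho of -0.02 (exact permutation p = 0.977). For the multiplexins Col15a1 and Col18a1 the r was -0.23 (exact permutation p = 0.604, adjusted p = 0.675) and the rho -0.14 (exact permutation p = 0.752).

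**Figure D4:**
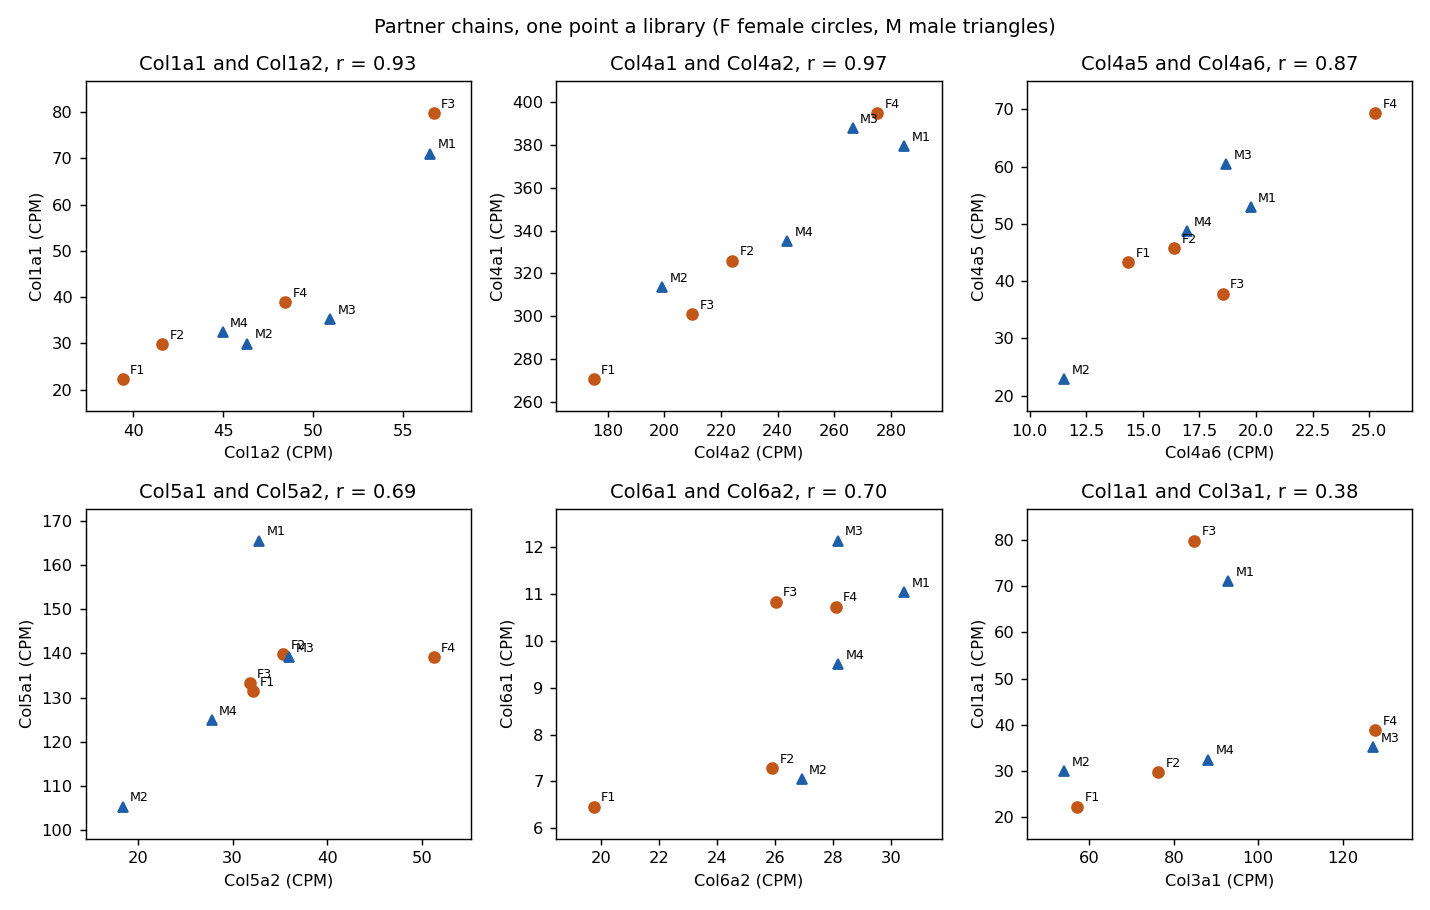
CPM of 6 pairs of partner chains, 1 point per library, female as circles and male as triangles. Col4a1 and Col4a2 lie along a line (r = 0.97), whereas Col1a1 rises steeply in Female replicate 3 and Male replicate 1 at the 2 highest Col1a2 values, and Col1a1 and Col3a1 scatter (r = 0.38).

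The ratio of partner chains varied less for type IV than for type I. Per length, Col4a1 over Col4a2 was 1.37, 1.29, 1.27 and 1.27 in the Female libraries and 1.18, 1.40, 1.29 and 1.22 in the Male libraries, a coefficient of variation of 5.48%. Col1a1 over Col1a2 was 1.07, 1.36, 2.66 and 1.52 in the Female libraries and 2.38, 1.22, 1.31 and 1.37 in the Male libraries, a coefficient of variation of 36.1%. The high ratios were those of the 2 libraries with high Col1a1. Type I collagen is known to hold more Col1a1 than Col1a2 chains, but the exon-union length used here sets the size of this ratio, so only its change between libraries is read. The ratio of Col4a5 to Col4a6 had a coefficient of variation of 16.6% and that of Col6a1 to Col6a2 17.2%.

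No collagen chain passed the test between Male and Female hearts. Across all genes, 6 of 16377 were called at an adjusted p below 0.05 (0.0366%), and of the 36 tested chains 0 were called; DESeq2 called 0 of the chains as well, and 0 of the 36 had an unadjusted p below 0.05, against 367 of all genes (2.24%). There were 22 chains with a higher and 14 with a lower male estimate. Their median log2 fold change, male minus female, was 0.05 against 0.01 over all tested genes. The estimates ran from -0.39 to 0.57 with standard errors of 0.10 to 0.55, and the 36 adjusted p-values were all 0.9995. No chain had 4 male libraries on one side of 4 female libraries in CPM, a separation found for 366 of 16377 genes (2.23%).

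Among the smallest p-values in the higher direction were Col6a3, Col6a2 and Col23a1. Col6a3 measured 1.21 ± 0.456 CPM (SD, n = 4) in Female and 1.77 ± 0.627 CPM in Male libraries, and the fit put the log2 difference at 0.57 ± 0.35 (SE). Col6a2 measured 24.9 ± 3.61 CPM in the first group and 28.4 ± 1.48 CPM in the other, a log2 difference of 0.19 ± 0.11, and the estimate for Col23a1 was 0.19 ± 0.12. Those with the smallest p in the lower direction were Col11a1 with a log2 fold change of -0.23 ± 0.12, Col9a1 with -0.24 ± 0.14 and Col5a2 with -0.39 ± 0.22. Col5a2 had 37.6 ± 9.21 CPM in females and 28.7 ± 7.67 CPM in males, with overlapping libraries. The estimate kept its sign for these 6 chains under all alternative settings run.

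The X-linked chains did not stand out: Col4a5 had a log2 fold change of -0.09 ± 0.29 and Col4a6 of -0.16 ± 0.21, and both changed sign without Female replicate 4 (0.13 and 0.03); Col4a5 also did so without Male replicate 2 (0.13). For the leading chains the estimates were 0.08 ± 0.18 for Col2a1, 0.03 ± 0.10 for Col18a1, 0.13 ± 0.13 for Col4a1 and 0.17 ± 0.16 for Col4a2. The estimate of Col1a1 was -0.01 ± 0.41, the widest error of the 18 chains, and moved to 0.47 without Female replicate 3 and to -0.38 without Male replicate 1. Summed over the 44 chains, the Female libraries held 2231 ± 244 CPM and the Male libraries 2338 ± 352 CPM (SD, n = 4).

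**Figure D5:**
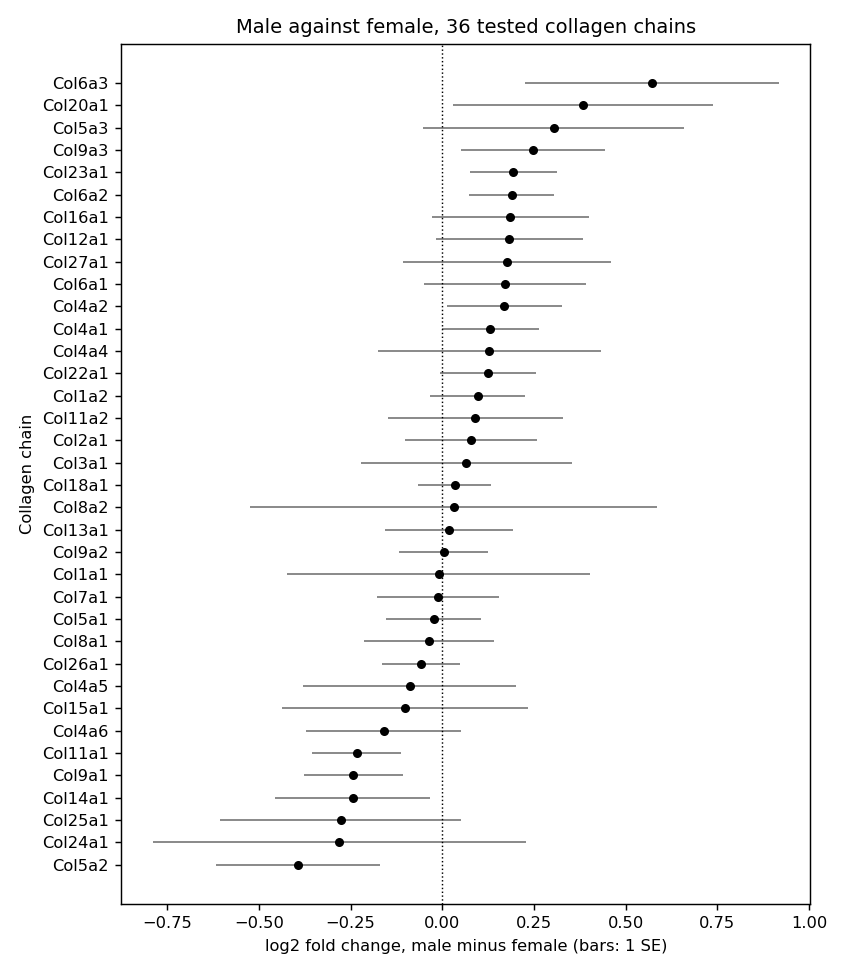
Log2 fold change, male minus female, of the 36 tested chains with bars of 1 SE, in order of the estimate. The values run from -0.39 for Col5a2 to 0.57 for Col6a3, and 0 of the 36 chains were called.

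The genes of collagen folding, export, processing and binding gave the same count. Of 69 listed genes 60 were tested by edgeR, and 0 were called by edgeR or by DESeq2 in any of the 8 roles. The edgeR p before adjustment was below 0.05 for 0 of the 60 tested. Over all tested genes the shares were 0.0366% called and 2.24% with such a p, so a count of 0 among 60 genes does not set this list apart. The genes named here are the 2 of each role with the highest CPM; CPM is not divided by length, so these values do not rank levels between genes. In prolyl hydroxylation, which stabilizes the triple helix, 10 of 10 genes were tested, and P4hb, a subunit of prolyl 4-hydroxylase, had a mean of 495 CPM and Ppib, a proline isomerase, 157 CPM. In lysyl hydroxylation and glycosylation 5 of 5 were tested, and Plod3 had a mean of 87.7 CPM and Colgalt1 of 62.1 CPM. Among chaperones and export factors 7 of 8 were found and tested, and Serpinh1, the collagen chaperone HSP47, had a mean of 1135 CPM, with Fkbp10 at 124 CPM.

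In propeptide cleavage Pcolce had a mean of 69.1 CPM and Bmp1 of 40.3 CPM. In crosslinking Loxl2, a lysyl oxidase, had a mean of 121 CPM and Pxdn, the peroxidase that links type IV collagen, of 115 CPM. Of the fibril organisers Sparc had a mean of 770 CPM and Fn1, fibronectin, 652 CPM. Of the degrading enzymes Mmp14 and Mmp15 had means of 202 and 196 CPM; Mmp14 was 407 CPM in Male replicate 2 and 139 to 208 CPM in the other 7 libraries. Of the receptors Itgb1 had a mean of 399 CPM and Ddr1, a collagen receptor kinase, 162 CPM. Of the 60 tested genes, 22 had their lowest value in Male replicate 2 and 13 their highest, while 23 were lowest and 1 highest in Female replicate 1. P4hb was 340 CPM in Male replicate 2 against 479 to 558 CPM in the others, and Ddr1 was 82.0 CPM there and 106 CPM in Female replicate 1, against 156 to 215 CPM in the other 6. In the opposite direction, Sparc was 1016 CPM in Male replicate 2 against 606 to 812 CPM in the others, and Fkbp10 156 CPM against 107 to 129 CPM.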

How the data were processed

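RNA-seq was measured in 8 libraries, 4 Female and 4 Male. The deposited counts are whole and not normalized, in 1 table per library and a table of the series that holds the same values in all 394520 cells. Per the submitters' processing notes, the tools were Trimmomatic 0.36, STAR 2.5.2b and, for counting, featureCounts from Subread 1.5.2, on GRCm38. Which annotation release and strand setting were used, and how multiply mapped reads were treated, was not stated in the labels or headers, so genes that overlap (13 of the 44 chains overlap exons of another gene) may share reads. The authors' normalized table was not used.

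Tests used the quasi-likelihood method of edgeR (version 4.0.16, R 4.3.3), robust and 2-sided, male minus female with no covariate, after filterByExpr at a minimum count of 10 and TMM scaling. P-values were adjusted by Benjamini-Hochberg over 16377 genes, with a call below 0.05. The fit was tested on simulated data. CPM use TMM-scaled totals, and log values use a pseudocount of 0.5 CPM. Correlations were tested in Python 3.11.15 with numpy 2.4.6 over all pairings of the libraries, and the smallest p this allows is 2.48e-05. Floors cover counting error only. No 2 replicates agreed within sampling noise (chi-square per gene 7.65 to 195), and all 8 libraries were kept.

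The chains, their classes, the 12 pairs, the marker and pathway lists and the alternatives were chosen with earlier results of these data known. Of 69 pathway genes, 1 (Ctage5) was not found by symbol. Named are the chains with a mean of at least 10 CPM, the highest of each class, the 3 smallest p in each direction, the 3 highest and 3 lowest coefficients of variation, chains with 0 counts, both chains of each pair, and the 2 pathway genes of each role with the highest mean CPM. Other chains and markers named with a value were chosen after their values were seen. Alternatives were DESeq2 1.42.0, RLE factors, library size alone, no filter, a filter at 1 CPM in 4 libraries, the replicate number as a block, and leaving out each library; a fit without Female replicate 1 and Male replicate 2 was added after the data were seen.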

Additional observations from a re-analysis of the deposited data

Results flagged for a closer look

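Within each sex, a library was singled out where its gap to the nearest other library, as a share of the range of the 4 libraries, was above Dixon's critical value. This was met 9 times in 82 groups of 4 values; chance gives about 1 in 20 groups, and the groups are not independent because chains move together.

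In the Male libraries, Col1a1 was 71.0 CPM in Male replicate 1 against 30.0 to 35.2 CPM in the other 3, and the per-length ratio of Col1a1 to Col1a2 was 2.38 there against 1.22 to 1.37. Female replicate 3, in the same way, had a per-length ratio of Col1a1 to Col3a1 of 1.41 against 0.455 to 0.584 in the other Female libraries. Male replicate 2 had 20.1 CPM of Col27a1 against 8.70 to 10.46 CPM, 30.8 CPM of Col26a1 against 23.6 to 24.8 CPM, and a per-length ratio of Col8a1 to Col8a2 of 18.6 against at most 5.17 in the other 3. The Col8a2 counts behind that ratio were 8 in Male replicate 2.

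Female replicate 1 had 384 CPM of Col18a1 against 445 to 457 CPM in the other 3. Female replicate 4 had 7.67 CPM of Col9a1 against 6.08 to 6.20 CPM, and a per-length ratio of Col5a1 to Col5a2 of 3.07 against 4.47 to 4.74.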

How the results depend on the processing

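Every setting run, by edgeR or DESeq2, called 0 collagen chains and 0 pathway genes. Over all genes, 5 to 9 were called against 6, and the same 6 were among them under each setting but the replicate block. With the replicate block 5 genes, all among the 6, and 0 chains were called. The median log2 fold change of the tested chains was then 0.057. Deviations of same-numbered libraries from the mean of their sex had an r from -0.42 to -0.0062. These values cannot tell whether same-numbered libraries share a litter or a batch, which the labels do not state. Without 1 library the median ran from 0.0015 to 0.13.

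The sign of small sex differences changed in 14 of the 28 named chains that were tested. With 1 library left out, the log2 fold change ran from -0.067 to 0.22 for Col2a1, -0.015 to 0.073 for Col18a1, -0.14 to 0.075 for Col5a1, -0.14 to 0.32 for Col3a1, -0.24 to 0.13 for Col4a5, -0.38 to 0.47 for Col1a1, -0.052 to 0.18 for Col13a1, -0.26 to 0.028 for Col4a6, -0.17 to 0.38 for Col27a1, -0.080 to 0.059 for Col9a2, -0.11 to 0.12 for Col7a1, -0.14 to 0.086 for Col8a1, -0.44 to 0.10 for Col15a1 and -0.24 to 0.64 for Col8a2. With the replicate block Col1a1 was 0.041 and Col9a2 -0.0018. With library size alone Col13a1 was -0.0058, Col9a2 -0.038 and Col8a2 -0.00051, and with no filter Col13a1 was -0.0049 and Col9a2 -0.019. Without Female replicate 1 and Male replicate 2 together, chosen after seeing the data, Col5a1 was 0.056, Col4a5 0.071, Col9a2 -0.044 and Col7a1 0.12. The filter at 1 CPM removed Col15a1 and Col8a2. The lowest adjusted p of these 28 chains under the settings run was 0.835 (edgeR or DESeq2).

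The count of correlated pairs ran from 2 to 4 with 1 library left out, and was 3 with values centred within each sex. In these settings Col1a1 with Col1a2 and Col4a1 with Col4a2 stayed below an adjusted p of 0.05; r ran from 0.72 to 0.93 for Col4a5 with Col4a6 and from 0.53 to 0.81 for Col6a1 with Col6a2. With 1 library left out, r ran from -0.35 to 0.21 for Col9a1 with Col9a2 (0.15 with library size alone), -0.078 to 0.68 for Col8a1 with Col8a2, -0.28 to 0.33 for Col2a1 with Col11a1, and -0.32 to 0.028 for Col15a1 with Col18a1. For Col5a1 with Col5a2 it ran from 0.22 (adjusted p = 0.648) without Male replicate 2 to 0.90 (adjusted p = 0.00873) without Male replicate 1, by exact permutation. The cause of these changes was not tested. Depth limits the 8 chains with 68 or fewer counts.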
